A study of Mus musculus with 9 samples.

Results

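The histone genes described here were 68 protein-coding rows, of 55385 rows in the table, whose symbol marks a linker histone (H1f followed by a digit) or a replication-dependent core histone (H2ac, H2bc, H3c or H4c followed by a digit, or the older form Hist1h to Hist4h). Of 72 rows with such a name, 4 were pseudogenes (H2ac14, H2ac5-ps, Hist1h2al and H1f11-ps) and were left out. The 68 comprised 10 H1, 17 H2A, 17 H2B, 12 H3 and 12 H4 genes. By position, 54 lay in the chromosome 13 cluster, 10 in the chromosome 3 cluster and 4 elsewhere. RNA came from the hemisphere of male C57BL/6 mice 8 to 10 weeks old, with 3 libraries in each of 3 groups. The tMCAO group had the middle cerebral artery on the right blocked by a filament for 90 min and then reperfused, a model of stroke with restored blood flow. The sham group had the same operation without the blockage. The celastrol group had the tMCAO operation and 4.5 mg/kg celastrol, a plant triterpenoid, by intraperitoneal injection when reperfusion began. The sources used here give neither how long after reperfusion the tissue was taken nor how many animals went into a library, so the p-values measure only the spread between these libraries. No celastrol without tMCAO was among the groups.

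Each library had 60392960 to 75158625 estimated counts (median 68726348). Mitochondrial rows took 5.80 to 7.39% of them and rows annotated as rRNA 0.0328 to 0.114%. The labelled tissue carried its defining markers, with 12 of 12 neuron markers detected and a summed level of 8951 to 13314 CPM (estimated counts scaled to the total of the library). Ependymal and choroid plexus markers differed most between libraries of a group, at 1901, 12.98 and 465 CPM summed over 10 genes in celastrol replicates 1, 2 and 3.

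Core histones H2A, H2B, H3 and H4 form the protein spool around which DNA is wound, and linker histone H1 binds where the DNA enters and leaves it. Replication-dependent histone mRNAs are made mainly in S phase and, unlike other mRNAs, end without a poly(A) tail, just after a short hairpin bound by the stem-loop binding protein Slbp. H1f0 and H1f10 are different: they lie outside the clusters, carry poly(A) tails and are expressed in cells that no longer divide, such as neurons. Some clustered histone genes can also make longer transcripts with a poly(A) tail. The libraries were made from total RNA depleted of ribosomal RNA, a protocol that does not require a tail.

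The 3′ hairpin was found in the gene models of 41 of the 68 members, within 100 bases after the stop codon, as GGNNCTTTNNAGNNCC with the inner bases able to pair (G with T allowed; transcript strand only). The same search found it in 5 of 20982 other genes (0.0238%). It was present in 4 H1, 10 H2A, 9 H2B, 8 H3 and 10 H4 genes. The 6 sequences found, with GENCODE M21 models on GRCm38, are shown by a member that carries each, because they separate the H4 genes from the rest. Stems are in capitals and the loop is in lower case, read 5′ to 3′ on the transcript strand.
H1f2, H2bc8, H3c14, H3c15 and 20 others: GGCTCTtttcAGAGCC
H2bc12 and 5 others: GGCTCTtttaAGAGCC
H2ac20: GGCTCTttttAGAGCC
H4c8 and 5 others: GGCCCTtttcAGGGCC
H4c14 and H4c9: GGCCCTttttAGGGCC
H4c11 and H4c2: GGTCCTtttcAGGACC
All 10 H4 hairpins had CCC or TCC after the opening GG, and 0 of the 31 hairpins of the other classes did. The hairpin of H4c14 lies at chr3:96262939-96262954 on the minus strand, 38 bases after the stop codon. That of H1f2 lies at chr13:23739512-23739527 on the plus strand, 24 bases after it. Over all 41, the distance was 21 to 58 bases (median 31). Of the 27 members without a hairpin, 15 had gene models with fewer than 30 bases after the stop codon, so their 3′ ends could not be read. Among the better measured members, H1f0, H1f10, H2bc4 and H2bc21 had no hairpin in their models and carried the polyadenylation letters AATAAA after the stop codon. H1f2 had the hairpin, and its model went on for 840 bases beyond it. The models of H4c14 and H3c14 went on for 1257 and 1167 bases.

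A few histone genes held most of the signal. H1f0, H2bc4, H1f2, H1f10 and H2bc21 took 87.5 to 95.1% of the counts of the 68 members in each library (median 90.5%), and H1f0 alone took 47.8 to 64.3%. Over the 9 libraries together, the members had 98191 counts, of which H1 genes took 74.8%, H2B 19.8%, H3 2.68%, H4 1.93% and H2A 0.846%. Per length, mean levels were 37.8 FPKM (fragments per kilobase of model, scaled to library size) for H1f0, 14.5 for H2bc4, 10.6 for H1f10, 9.07 for H1f2 and 2.56 for H2bc21. H2bc8 had 1.51 and H3c14 1.47, and the other members lay below 1. Of the 5 members with the highest level, 4 had no hairpin in their models, and H1f2 had it. H2bc4 has 1 coding model, with 2 exons, so a hairpin in bases that this model skips would not have been seen.

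**Figure D1:**
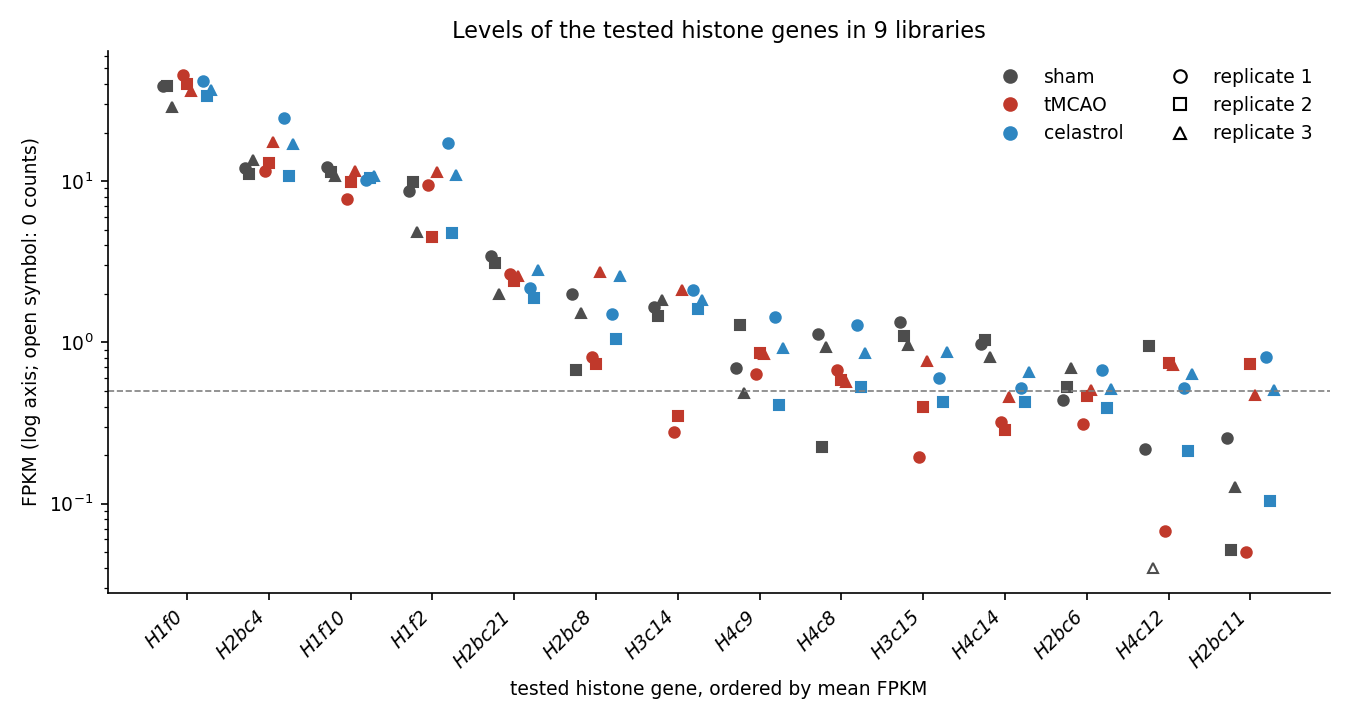
FPKM (log axis) of the 14 tested histone genes in each of the 9 libraries, coloured by group, with a symbol for each replicate number. The dashed line is the filter at 0.5 FPKM. H1f0 stood above the others in every library, and most genes to the right of H2bc21 lay within a few fold of the line.

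Of the 68 members, 14 passed the filter (at least 0.5 FPKM in at least 3 of 9 libraries) and were tested among 16982 rows. They were 3 H1, 0 H2A, 5 H2B, 2 H3 and 4 H4 genes. The other 54 were not tested: 8 had 0 counts in all 9 libraries, and 19 had 1 to 20 counts in all. H2bc11 was just inside the filter, with 3 libraries at or above 0.5 FPKM, and H3c4, H1f4 and Hist1h4m were just outside, with 2. A member can pass this filter through the group in which it is high, so counts over the 14 do not stand for all members.

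No histone gene passed an adjusted p of 0.05 in any comparison (edgeR's quasi-likelihood test, Benjamini-Hochberg over all 16982 rows). In tMCAO against sham, 0 of 14 members and 0% of all rows passed. At an unadjusted p under 0.05, 2 members were lower (H4c14 and H3c15; 6.36% of all rows) and 0 were higher (8.56% of all rows). The same 2 members had groups that did not overlap with tMCAO lower (5.99% of all rows), and 0 had them with tMCAO higher (19.2%). The 2 lower members became 4 without tMCAO replicate 3, with H3c14 and H1f10 added, and 1 without sham replicate 1 or without tMCAO replicate 2. Log2 fold changes of the 14 were negative for 9 and positive for 5, with a median of −0.22 beside 0.01 over all rows. In the same comparison 11 of 12 neuron markers were negative (median −0.32). Positive were 8 of 10 endothelial (0.44), 10 of 10 ependymal and choroid plexus (0.86) and 5 of 5 tested leukocyte markers, of 16 listed (3.14). So were 8 of 11 pericyte and fibroblast (0.50), 9 of 12 microglia and macrophage (0.19), 5 of 5 tested erythrocyte (0.21) and 6 of 9 tested neurogenic niche markers (0.16). Astrocyte, oligodendrocyte and oligodendrocyte precursor markers each had 5 positive and 5 negative. None of these markers passed the adjusted threshold. Leukocyte markers can pass the filter through the groups in which they are high, so those signs do not stand for the list. Retnlg, for example, was at 0 CPM in all 3 sham libraries. Summed leukocyte markers had 1.99 to 4.54 CPM in sham, 15.04 to 18.9 in tMCAO and 13.7 to 39.5 in celastrol, with Elane at 0 in all 9 libraries. Summed neuron markers had 10009 to 11612 CPM in sham, 8984 to 9573 in tMCAO and 8951 to 13314 in celastrol, and endothelial markers 296 to 334, 365 to 469 and 357 to 557. Their part in the histone values was not tested. These are bulk samples, in which fewer cells of a type and less RNA per cell cannot be told apart.

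In celastrol against tMCAO, 0 members and 0% of all rows passed the adjusted threshold. At an unadjusted p under 0.05, 0 members were higher (2.25% of all rows) and 0 lower (1.86%), and no tested member had groups apart in either direction (2.73% of all rows higher, 5.25% lower). Without tMCAO replicate 3, 3 members were higher (H3c14, H3c15 and H4c14), and without celastrol replicate 2, 1 was (H2bc4). Of the 14 log2 fold changes, 11 were positive and 3 negative, with a median of 0.31 beside −0.00 over all rows. In celastrol against sham, 0 members passed (0.00589% of all rows, which is 1 row). At an unadjusted p under 0.05, 1 member was lower (H4c14; 2.81% of all rows) and 0 were higher (5.69%). The groups lay apart with celastrol lower for 2 members (H4c14 and H3c15; 4.09% of all rows) and with celastrol higher for 0 (9.19%). The 1 lower member became 2 without sham replicate 3 (H2bc21 added) and 0 without sham replicate 2, celastrol replicate 1 or celastrol replicate 2, and H2bc4 was higher without celastrol replicate 2. The median was 0.09 (9 positive, 5 negative) beside 0.00 over all rows. The 3 comparisons share libraries, so their values are not independent of each other.

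**Figure D2:**
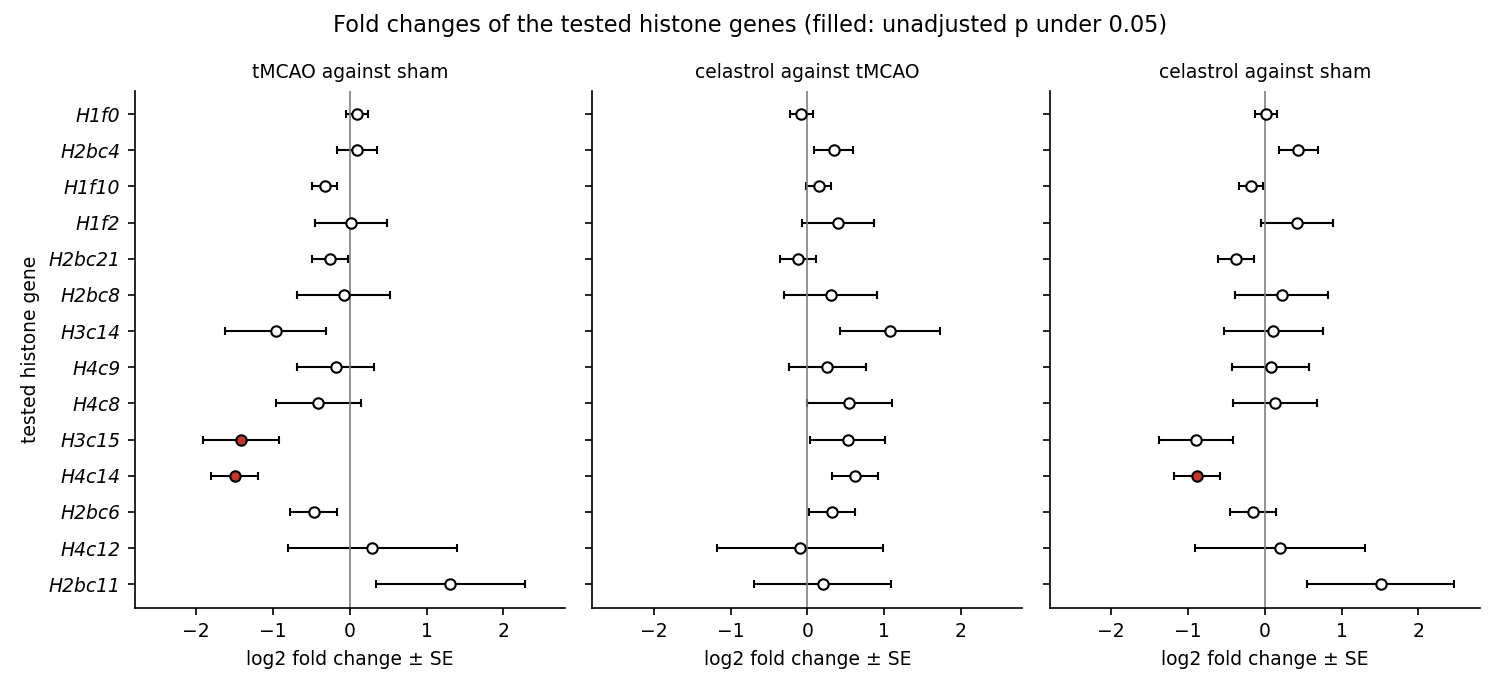
Log2 fold change with its standard error for the 14 tested histone genes in the 3 comparisons, ordered by mean FPKM. Filled points have an unadjusted p under 0.05, and none passed after adjustment. H4c14 and H3c15 lay lowest in tMCAO against sham, at −1.50 and −1.42, and H2bc11 lay highest, at 1.31.

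H4c14 encodes histone H4 from the chromosome 3 cluster (ENSMUSG00000091405, chr3:96261682-96263311 on the minus strand of GRCm38). Its model has 1 exon of 1630 bases, of which 312 are coding, and no other row of the table overlaps it. It had 1.80, 1.91 and 1.51 CPM in sham replicates 1, 2 and 3, then 0.600, 0.536 and 0.844 CPM in tMCAO and 0.960, 0.788 and 1.21 CPM in celastrol. Each tMCAO and each celastrol library lay below each sham library, and the celastrol and tMCAO ranges overlapped. Those levels rest on 131, 120 and 91 counts in sham, 43, 38 and 52 in tMCAO and 66, 53 and 91 in celastrol. The group means were 1.74 ± 0.209, 0.660 ± 0.162 and 0.986 ± 0.213 CPM (SD, n = 3). The log2 difference of tMCAO from sham was −1.50 ± 0.30 (SE), with an unadjusted p of 0.000861 and an adjusted p of 0.125 (edgeR). It did not pass. Under DESeq2 the adjusted p was 0.000551, and over the 19 settings that tested it, this one included, it ran from 0.000551 to 0.421. Celastrol differed from tMCAO by 0.62 ± 0.30 (adjusted p = 0.976, edgeR) and from sham by −0.88 ± 0.30, with an unadjusted p of 0.0168 and an adjusted p of 0.440. No stretch of 150 bases of its model, the read length, was found in the models of other genes.

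The other 11 H4 genes did not show that order. Summed without H4c14, they had 1.80, 1.91 and 1.84 CPM in sham, 1.44, 1.98 and 2.11 in tMCAO, and 3.56, 0.803 and 2.39 in celastrol. The tMCAO libraries lay on both sides of the sham libraries, and the celastrol libraries were both the highest and the lowest. They included the tested genes H4c8, H4c9 and H4c12, of which H4c9 had the highest level per length, with a mean of 0.843 FPKM. H4c9 had 0.577, 1.07 and 0.414 CPM in sham, 0.530, 0.720 and 0.698 in tMCAO, and 1.19, 0.342 and 0.772 in celastrol. Its groups overlapped in every comparison, as did those of H4c8 and H4c12. H4c12 was counted at 0 in 1 sham library and at no more than 0.334 CPM in any.

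H3 was represented mainly by H3c14 and H3c15, which lie on opposite strands of the chromosome 3 cluster and have identical coding sequences over 411 bases. H3c15 (ENSMUSG00000081058, chr3:96238108-96239127, minus strand) had 1.54, 1.26 and 1.13 CPM in sham, 0.223, 0.466 and 0.892 in tMCAO, and 0.698, 0.491 and 1.01 in celastrol. The sham libraries were the 3 highest. Counts were 112, 79 and 68 in sham, 16, 33 and 55 in tMCAO, and 48, 33 and 76 in celastrol. tMCAO differed from sham by −1.42 ± 0.49 (adjusted p = 0.256, edgeR), and celastrol from sham by −0.89 ± 0.49 (adjusted p = 0.673). Celastrol differed from tMCAO by 0.52 ± 0.49 (adjusted p = 0.976). Of the stretches of 150 bases in its model, 59.4% are also found in another gene, so its counts can depend on how shared reads were assigned.

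H3c14 (ENSMUSG00000093769, chr3:96246685-96248509, plus strand) shares 100% of the 150-base stretches of its model with other genes, overlapping ones included. It had 3.42, 2.99 and 3.79 CPM in sham, 0.586, 0.748 and 4.33 in tMCAO, and 4.39, 3.33 and 3.78 in celastrol. tMCAO replicates 1 and 2 were far below the other 7 libraries, and tMCAO replicate 3 lay above every sham library. The log2 difference of tMCAO from sham was −0.97 ± 0.66 (adjusted p = 0.522, edgeR) and that of celastrol from tMCAO was 1.08 ± 0.66 (adjusted p = 0.976). The directions of both differences came from tMCAO replicates 1 and 2, and tMCAO replicate 3 lay against them. Without tMCAO replicate 3 the differences were −2.44 ± 0.29 (adjusted p = 0.0872, edgeR) and 2.55 ± 0.29 (adjusted p = 0.254). In that fit the smaller group is assumed to vary like the others.

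Rows that overlap H3c14 or its neighbour H2ac18 differed in the same libraries. H2ac18 (ENSMUSG00000064220, chr3:96245497-96246082, plus strand) had 218 counts in tMCAO replicate 2 and 0 in the other 8 libraries, where a count of 0 allows up to 0.0497 CPM (3 counts). The long non-coding RNA row Gm20634, which overlaps both genes on their strand, had 104 counts in tMCAO replicate 2 and 0 elsewhere. Gm20633, on the opposite strand of H2ac18, had 0.810, 1.497 and 0.546 CPM in sham, 6.14, 0.903 and 2.29 in tMCAO, and 3.32, 1.20 and 0.506 in celastrol. Its highest value was in tMCAO replicate 1, where H3c14 was lowest. Summed over these 4 rows, an alternative added after the data were seen, the level was 4.23, 4.49 and 4.34 CPM in sham, 6.72, 6.19 and 6.62 in tMCAO, and 7.71, 4.54 and 4.28 in celastrol. The log2 ratio of mean CPM of tMCAO to sham was −0.85 for H3c14 alone and 0.58 for the sum. The sum takes in other rows: Gm20633 held 440 of its 482 counts in tMCAO replicate 1, and H2ac18 218 of its 439 in tMCAO replicate 2. It therefore does not show that H3c14 itself turned. The sources used here do not say whether counting used the strand or how reads on overlapping rows were divided, and the part of either in these values was not tested.

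**Figure D3:**
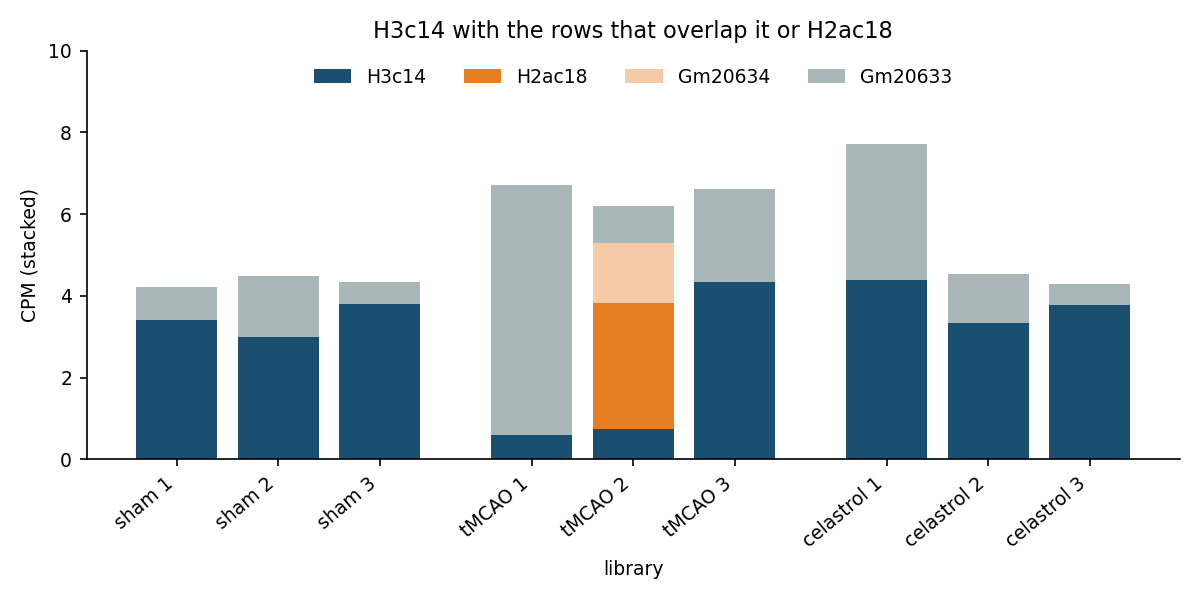
CPM of H3c14, H2ac18 and the non-coding rows Gm20634 and Gm20633, stacked, in each library. The stacks of the 3 tMCAO libraries are close to each other, at 6.19 to 6.72 CPM, although H3c14 fills 0.586 to 4.33 CPM of them.

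Linker histones made up the bulk of the member counts. H1f0 (ENSMUSG00000096210, chr15:79028450-79030504, plus strand), the replication-independent linker histone of resting cells, had 89.4, 90.5 and 66.9 CPM in sham, 105, 93.7 and 83.5 in tMCAO, and 96.8, 78.1 and 86.0 in celastrol. The 3 groups overlapped, and sham replicate 3 was the lowest library. tMCAO differed from sham by 0.10 ± 0.14 (adjusted p = 0.796, edgeR), a value that turned to −0.031 without sham replicate 3. H1f10 (ENSMUSG00000044927, chr6:87980421-87981637, minus strand), the other replication-independent linker gene outside the clusters, had 16.7, 15.6 and 14.8 CPM in sham, 10.7, 13.7 and 15.9 in tMCAO, and 13.98, 14.3 and 14.8 in celastrol. tMCAO replicates 1 and 2 lay below the sham libraries and replicate 3 lay inside the sham range. The difference of tMCAO from sham was −0.33 ± 0.16 (adjusted p = 0.377, edgeR).

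H1f2 (ENSMUSG00000036181, chr13:23738808-23740367, plus strand) was the clustered linker histone with the highest level. It had 15.2, 17.3 and 8.51 CPM in sham, 16.8, 8.00 and 19.96 in tMCAO, and 30.4, 8.39 and 19.4 in celastrol. In each group 1 library lay near 8 CPM and the other 2 at 15.2 CPM or more, so the spread within groups exceeded the differences between them. Celastrol differed from tMCAO by 0.40 ± 0.47 (adjusted p = 0.976, edgeR) and from sham by 0.42 ± 0.47 (adjusted p = 0.866). Without celastrol replicate 1 these were −0.043 and −0.020. H1f4 was not tested. It had 0.810, 1.08 and 0.646 CPM in sham, 0.460, 0.325 and 1.01 in tMCAO, and 1.85, 0.788 and 1.22 in celastrol, and its groups overlapped. Its row overlaps that of H2bc6 on the same strand. H1f3 had 64, 0 and 19 counts in celastrol and 4 to 27 in the other libraries, and H1f5 had 40, 0 and 8 in celastrol and 0 to 12 elsewhere. The germ-line linker genes H1f6, H1f7 and H1f8 had at most 4, 4 and 6 counts in any library, and H1f1 at most 12.

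Among H2B genes, H2bc4 (ENSMUSG00000018102, chr13:23684199-23692908, plus strand) has 2 exons in its longest model. It had 15.7, 14.4 and 17.7 CPM in sham, 15.1, 16.9 and 22.8 in tMCAO, and 32.0, 14.02 and 22.1 in celastrol. Celastrol replicates 1 and 2 were the highest and the lowest of the 9 libraries. Celastrol differed from sham by 0.44 ± 0.26 (adjusted p = 0.704, edgeR) and from tMCAO by 0.34 ± 0.26 (adjusted p = 0.976). H2bc21 (ENSMUSG00000068854, chr3:96221119-96223738, plus strand), an H2B gene of the chromosome 3 cluster, had 10.2, 9.20 and 5.91 CPM in sham, 7.88, 7.15 and 7.64 in tMCAO, and 6.45, 5.55 and 8.32 in celastrol. The sham libraries spanned most of the range of the others. tMCAO differed from sham by −0.26 ± 0.24 (adjusted p = 0.646) and celastrol from sham by −0.38 ± 0.24 (adjusted p = 0.731).

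H2bc6 had 2.22, 2.69 and 3.54 CPM in sham, 1.60, 2.40 and 2.55 in tMCAO, and 3.42, 1.98 and 2.61 in celastrol, with overlapping groups and a tMCAO difference of −0.47 ± 0.30 (adjusted p = 0.498, edgeR). H2bc8 had 1.40, 0.478 and 1.08 CPM in sham, 0.572, 0.522 and 1.91 in tMCAO, and 1.05, 0.743 and 1.80 in celastrol. Its replicates differed by more than its group means, which were 0.985 ± 0.468, 1.003 ± 0.790 and 1.20 ± 0.542 CPM (SD, n = 3). H2bc11 had its lowest value, 0.0279 CPM, in tMCAO replicate 1 and its highest, 0.437 CPM, in celastrol replicate 1. Its differences from sham were the largest positive ones of the 14 tested members. They were 1.31 ± 0.97 for tMCAO (adjusted p = 0.556, edgeR) and 1.51 ± 0.96 for celastrol (adjusted p = 0.736).

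Among the members, H2A genes were the scarcest class. The symbol rule leaves out other H2A genes, which had more counts. H2aw had 17.4 to 34.0 CPM over the 9 libraries, H2aj 17.4 to 24.7 and H2ax 15.8 to 19.1. All 17 H2A members together had 1.07, 1.003 and 0.397 CPM in sham, 0.851, 3.41 and 1.87 in tMCAO, and 1.95, 0.253 and 1.29 in celastrol. H2ac6 held 405 of the 831 counts and H2ac18 another 218, which lay in 1 library. H2ac6 had 0.563, 0.908 and 0.315 CPM in sham, 0.614, 0.226 and 1.20 in tMCAO, and 1.34, 0.208 and 0.639 in celastrol, with overlapping groups. All 17 H2A rows overlap another row of the table, as do 8 members of the other classes. H2ac19, whose coding sequence is identical to that of H2ac18, had 0 counts in all 9 libraries. The non-coding row Gm20632, on the opposite strand of H2ac19, had 145 to 400 counts.

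Low counts met shared sequence. Of the 68 members, 54 had at least 1 stretch of 150 bases in their model that also occurs in another gene, and for 24 such stretches made up over 50% of the model. The median share was 59.3% for H2A, 38.1% for H3, 23.4% for H2B, 17.8% for H4 and 0% for H1. Between pairs of equal coding length, median identity of the coding sequence was 97.6% for H2B, 97.2% for H2A, 97.2% for H3 and 94.7% for H4. Identical pairs were H2ac18 with H2ac19, Hist1h2ao with Hist1h2ap, Hist1h2bq with Hist1h2br, H3c14 with H3c15, and Hist1h4m with Hist1h4n. Values of the members within such a pair are uncertain.

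**Figure D4:**
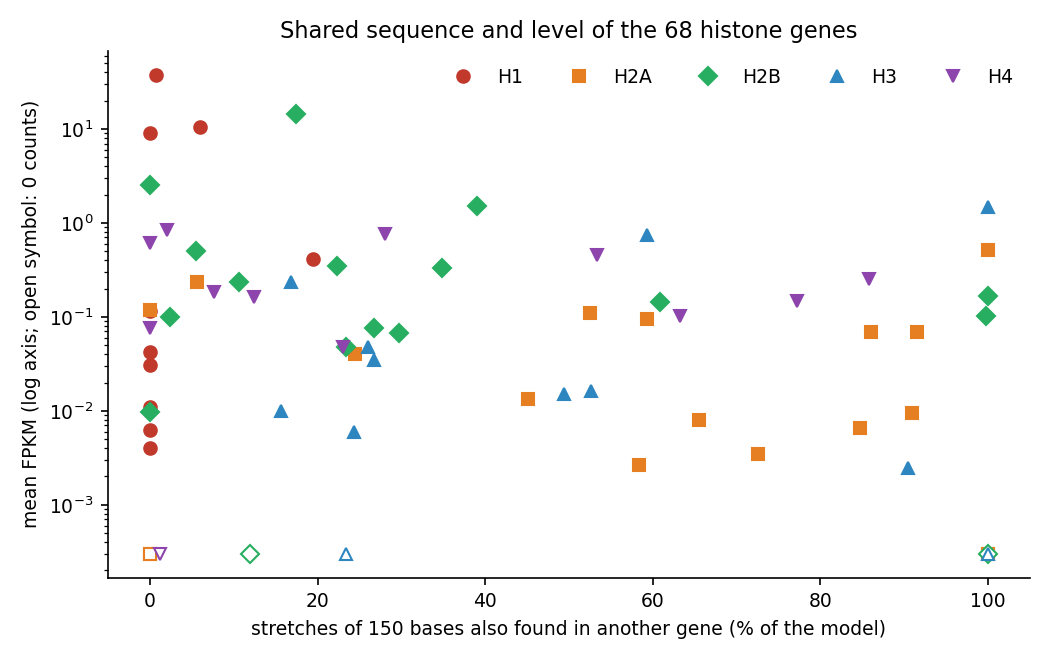
Mean FPKM (log axis) of each of the 68 histone genes against the share of its model, in stretches of 150 bases, that also occurs in another gene, by class. H1 genes lie at the left (at most 19.5%), H2A genes mostly at the middle and right, and the 8 genes with 0 counts are open symbols at the bottom.

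Summed over a class, libraries of a group often differed more than groups. All 68 members together had 163, 162 and 130 CPM in sham, 163, 152 and 169 in tMCAO, and 203, 131 and 169 in celastrol. H3 had 5.08, 4.51 and 5.56 CPM in sham, 0.976, 1.61 and 6.07 in tMCAO, and 6.08, 3.94 and 5.28 in celastrol. H4 had 3.597, 3.82 and 3.34 CPM in sham, 2.04, 2.51 and 2.95 in tMCAO, and 4.53, 1.59 and 3.61 in celastrol. In CPM the tMCAO libraries lay below the sham libraries in H4, though not in H4 without H4c14, and in summed FPKM the H4 groups overlapped (3.83, 4.14 and 3.55 in sham, 2.35, 3.29 and 3.75 in tMCAO). The groups overlapped in the other classes.

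The 54 members that were not tested had 3.69, 3.77 and 4.24 CPM in sham, 3.46, 6.19 and 7.27 in tMCAO, and 9.88, 2.01 and 6.31 in celastrol. Celastrol replicates 1 and 2 were again the highest and the lowest. Replicate 1 was the highest library for 6 of the 14 tested members (15.6% of all rows tested) and for 16 of the 46 untested members with any count. Replicate 2 had 0 counts for 31 of those 46, beside 13 in replicate 1 and 12 in replicate 3. In the sham libraries 19, 26 and 26 of them were at 0, and in the tMCAO libraries 23, 19 and 18. H3c6 was the 1 member of these 46 whose celastrol libraries all lay above tMCAO (2.73% of all rows tested). It had 4, 4 and 12 counts against 2, 1 and 0, too few to test, and it is named after its values were seen. A list of 19 small non-coding RNAs without a poly(A) tail, such as Rn7sk, had 2.76, 9.62 and 1.77 CPM in sham, 4.13, 1.78 and 5.86 in tMCAO, and 22.8, 2.11 and 8.98 in celastrol. It too was highest in celastrol replicate 1, as were the summed ependymal and choroid plexus, oligodendrocyte (5195 CPM), astrocyte (5494 CPM), endothelial (557 CPM) and infiltrating leukocyte (39.5 CPM) markers. Neuron markers were highest (13314 CPM) and oligodendrocyte markers lowest (2354 CPM) in celastrol replicate 2. Other lists peaked elsewhere. Microglia and macrophage, pericyte and fibroblast, neurogenic niche, erythrocyte, and S phase and proliferation sums were highest in tMCAO replicate 3. Oligodendrocyte precursor markers were highest in celastrol replicate 3. Processing factors, chaperones and the variant list were highest in tMCAO replicate 1. The part of these lists in the histone values was not tested.

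**Figure D5:**
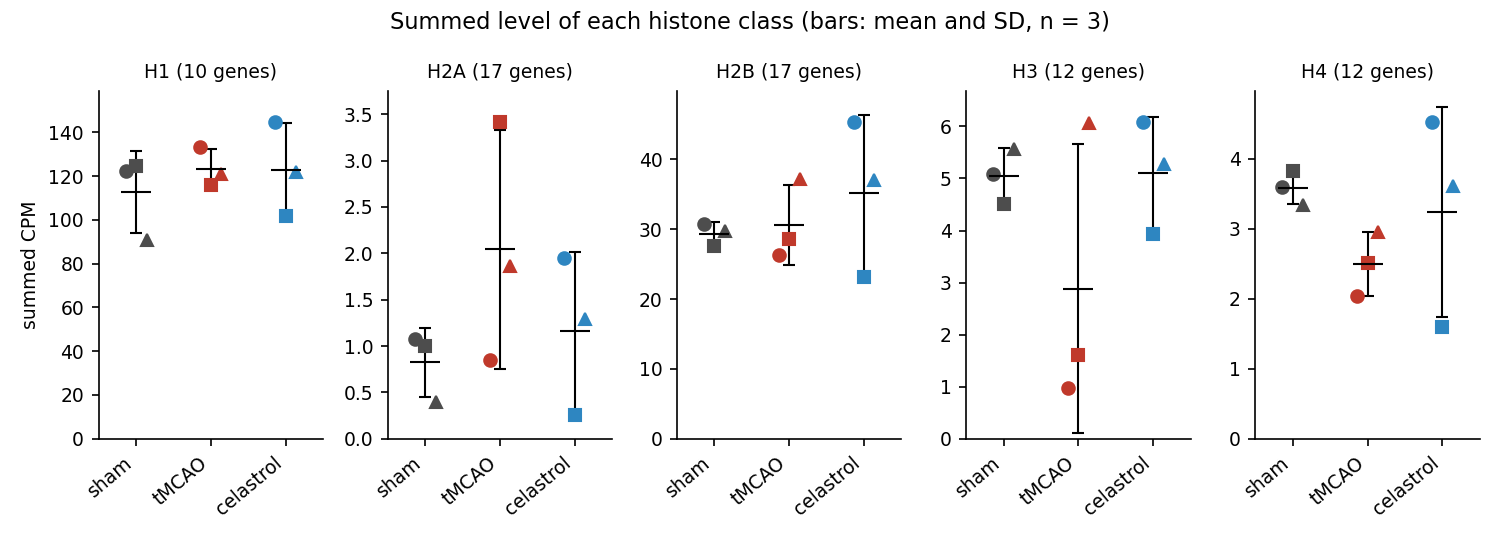
Summed CPM of each histone class in every library (circle, square and triangle for replicates 1, 2 and 3), with the mean and SD of each group (n = 3). The y axes start at 0 and differ between panels. Celastrol replicate 1 is above replicate 2 in every class, for example at 45.3 and 23.1 CPM in H2B.

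Histone promoters are known for a TATA box, CCAAT boxes, an octamer in H2B genes and an AAACACA element in H1 genes. In the 250 bases before the RefSeq start (GRCm38.p6), found for 62 members, TATAAA occurred in 28 (45.2%, beside 12.4% of all 32851 windows). CCAAT occurred in 49 (79.0%, beside 33.8%), and in 31 of 31 H2A and H2B windows. The octamer ATGCAAAT occurred in 13 (20.97%, beside 1.60%), of which 6 were H2A and 7 H2B. AAACACA occurred in 9 (14.5%, beside 6.25%), of which 5 were H1. Both strands were searched, and no motif contains another. The windows of H1f2 (chr13:23738557-23738806, plus strand), H1f4 (chr13:23622559-23622808, minus strand) and H2bc8 (chr13:23571150-23571399, plus strand) are shown because they hold the class elements. Matches to these letters are in capitals, and ATTGG and ATTTGCAT are the reverse strand forms of CCAAT and the octamer.
H1f2: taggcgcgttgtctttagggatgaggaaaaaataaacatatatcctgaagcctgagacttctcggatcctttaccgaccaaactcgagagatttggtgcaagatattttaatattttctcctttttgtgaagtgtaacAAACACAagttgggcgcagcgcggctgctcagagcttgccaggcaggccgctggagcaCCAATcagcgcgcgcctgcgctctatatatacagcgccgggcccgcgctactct
H1f4: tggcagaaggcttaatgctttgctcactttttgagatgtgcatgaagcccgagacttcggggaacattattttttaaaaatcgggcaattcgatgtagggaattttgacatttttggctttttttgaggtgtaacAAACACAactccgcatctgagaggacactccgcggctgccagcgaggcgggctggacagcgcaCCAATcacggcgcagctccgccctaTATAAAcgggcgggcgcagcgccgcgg
H2bc8: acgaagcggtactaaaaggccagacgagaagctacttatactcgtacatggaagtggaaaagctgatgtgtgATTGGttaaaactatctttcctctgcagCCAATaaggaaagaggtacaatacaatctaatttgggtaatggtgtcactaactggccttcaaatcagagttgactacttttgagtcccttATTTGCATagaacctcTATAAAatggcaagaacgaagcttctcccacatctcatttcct
H1f2 and H1f4 share AAACACA and a CCAAT nearer the start, and TATAAA follows in H1f4. The window of H2bc8 holds a CCAAT on each strand, then the octamer and TATAAA. The windows of H1f0 and H1f10, the replication-independent genes, hold none of the 4, nor do those of H3c14 and H3c15. A match describes letters and was not tested as a site.

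Genes that make or process histone mRNA did not pass the adjusted threshold either. Of 26 tested synthesis and processing factors, 0 were called in any comparison, and the median log2 fold change of tMCAO from sham was 0.05 (16 positive, 10 negative). Slbp, which binds the hairpin, had 15.9, 12.6 and 13.01 CPM in sham, 22.4, 16.1 and 14.1 in tMCAO, and 14.8, 14.5 and 23.1 in celastrol, with overlapping groups and a tMCAO difference of 0.25 ± 0.24 (adjusted p = 0.666, edgeR). The smallest unadjusted p-values in tMCAO against sham were those of Snrpb, an Sm core protein (0.40 ± 0.13), Lsm11, a subunit of the U7 particle that cuts histone mRNA (−0.43 ± 0.17), and Dis3, a nuclease of the exosome (0.49 ± 0.20). Their adjusted p-values were 0.237, 0.305 and 0.317.

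The tested S phase and proliferation genes lay mostly higher in tMCAO than in sham. H4c14 and H3c15 lay lower, but they were picked for their low p in this comparison. Of the 14 tested histone members, 9 were negative and 5 positive. The 54 untested members summed had a log2 ratio of mean CPM of 0.53, with overlapping groups. Of 30 S phase and proliferation genes, 16 were tested. A positive difference of tMCAO from sham was seen in 15 of those, with a median of 0.54. At an unadjusted p under 0.05, 8 were higher (8.56% of all rows) and 0 lower (6.36%), and 0 were called. Such genes can pass the filter through the groups in which they are high, so these counts do not stand for all 30. Gins2, for example, had 0.621 to 0.977 CPM in sham and 6.64 to 7.11 in tMCAO. Mcm4, part of the replicative helicase, differed by 0.60 ± 0.13 (adjusted p = 0.125, edgeR), Gins2, its partner at the fork, by 3.02 ± 0.79 (adjusted p = 0.180) and Pcna, the sliding clamp, by 0.41 ± 0.13 (adjusted p = 0.225). Mki67 and Top2a, markers of dividing cells, were below the filter. Mki67 had 1.21, 3.95 and 5.78 CPM in sham, 3.92, 1.17 and 3.25 in tMCAO, and 2.72, 1.23 and 1.66 in celastrol, with overlapping groups. Top2a overlapped too, at 0.618 to 5.55 CPM in sham and 0.550 to 5.35 in tMCAO. In celastrol against tMCAO, 1 of the 16 was positive, with a median of −0.42, 2 were lower at an unadjusted p under 0.05 (Pcna and Mcm4; 1.86% of all rows), and 0 were called.

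Histone chaperones gave 0 calls in each comparison as well. So did a variant list, made of histone genes outside the symbol rule that are mostly replication-independent. The variant list includes H2aw and H2bu2, whose older symbols are Hist3h2a and Hist3h2bb. Of 19 tested chaperones, 11 were positive and 8 negative in tMCAO against sham (median 0.05). Daxx, a chaperone of variant H3.3, had the smallest unadjusted p (−0.53 ± 0.18, adjusted p = 0.249, edgeR). Of 10 tested genes of the variant list, 4 were positive and 6 negative (median −0.07). H3f3b, which encodes H3.3, had 121, 95.2 and 91.2 CPM in sham, 218, 146 and 147 in tMCAO, and 152, 86.9 and 143 in celastrol. Its tMCAO libraries lay above its sham libraries (0.64 ± 0.22, adjusted p = 0.253, edgeR). Those of H3c15, a replication-dependent H3 gene picked for its low p, lay below. The tMCAO libraries of H3c14 lay on both sides of its sham libraries. None of these H3 genes passed the adjusted threshold.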

How the data were processed

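The table holds estimated counts and FPKM per gene for each library, deposited by the authors. Per the labels' protocols, ribosomal RNA was removed from total RNA with a Ribo-Zero Gold kit and libraries were read as 2 × 150 bases. Per the submitters' processing notes, the tools included StringTie 1.3.4d, HISAT2 2.0.4 and cutadapt 1.9, with DESeq2 and edgeR. The estimated counts deposited by the authors are whole numbers. FPKM values deposited by the authors are relative to length and library, with 0.0001 standing for no signal. The sources used here do not give strandedness or the treatment of reads with several matches. Coordinates match GENCODE M21 on GRCm38 for 67 of 68 members.

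CPM used library totals. The test was edgeR 4.0.16 (glmQLFit, glmQLFTest, two-sided, TMM scaling, R 4.3.3) on the estimated counts, with all 9 libraries in 1 fit, rows of at least 0.5 FPKM in at least 3 libraries (16982), and Benjamini-Hochberg adjustment over them. It was also run on simulated data in which all rows had the same spread. That run does not show what changes could be seen in members with few counts. Alternatives used DESeq2 1.42.0, limma 3.58.1 on log2(FPKM + 0.5) or log2(FPKM + 0.1), other scalings, filters, library sets and the replicate block. Groups come from the sample titles. Members and lists were chosen with earlier results of these data known. Named genes were the 10 members with the highest mean CPM, tested members at an unadjusted p under 0.05, H1 genes of at least 0.1 CPM, members at the filter, and the genes of other lists with the smallest p. Other members were named for sequence or for their counts after these were seen. Motifs and shared stretches were found by exact search. Depth (60392960 to 75158625 counts) puts 3 counts at 0.0399 to 0.0497 CPM, and such limits cover counting error only.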

Additional observations from a re-analysis of the deposited data

How the results depend on the processing

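The count of members called was 0 under each setting run except DESeq2, which called 1 in tMCAO against sham (H4c14, −1.51). Members lower at an unadjusted p under 0.05 in tMCAO against sham numbered 2, with 3 under DESeq2 (H1f10 added), 0 at a filter of 1 FPKM, which removes both, and 1 to 4 leaving out each library. Members higher there numbered 1 with no filter (H2ac18, counted in 1 library). In celastrol against tMCAO, members higher numbered 0, with 1 with no filter, 1 with limma on log2(FPKM + 0.5), 2 on log2(FPKM + 0.1), 1 with the replicate block, and 0 to 3 leaving out libraries, and members lower numbered 1 with no filter. In celastrol against sham, members higher numbered 1 with no filter and 0 to 1 leaving out libraries. Members lower numbered 1, with 0 at 1 FPKM, 2 with limma on log2(FPKM + 0.5), 2 with the 2 groups alone, and 0 to 2 leaving out libraries. The median of the tested members ran from −0.31 to −0.09, 0.10 to 0.58 and −0.08 to 0.27 in the 3 comparisons when each library was left out. With library totals alone, the median of all rows in tMCAO against sham moved to 0.11 and that of the members to −0.12. H4c14 kept its direction in each setting that tested it, at −1.70 to −0.75, and H3c15 at −2.01 to −0.81 (adjusted p from 0.117 to 0.528). The difference of H1f0 in tMCAO against sham turned (−0.031 without sham replicate 3, and up to 0.19 leaving out other libraries). Those of H1f2 turned without celastrol replicate 1 (−0.043 and −0.020 in the 2 celastrol comparisons, and up to 0.74 and 0.76 leaving out other libraries). The cause of these turns was not tested. H3c14 summed with H2ac18, Gm20634 and Gm20633 had a positive log2 ratio (0.58) and H3c14 alone a negative one (−0.85), but that sum mixes different genes.

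Rows called over the whole table moved as well. In tMCAO against sham (0) they were 836 with DESeq2, 3 with limma on log2(FPKM + 0.1), 2 with the newer quasi-likelihood form, 51 with the replicate block, 30 with the 2 groups alone, and 0 to 91 leaving out libraries (91 without celastrol replicate 2). In celastrol against tMCAO (0) they were 18 with DESeq2 and 0 to 2 leaving out libraries. In celastrol against sham (1) they were 3 with no filter, 2 at 1 FPKM, 380 with DESeq2, 0 and 6 with limma on log2(FPKM + 0.5) and log2(FPKM + 0.1), 6 with the newer form, 22 with the replicate block, 4 with the 2 groups alone, and 0 to 46 leaving out libraries (46 without celastrol replicate 2). The labels do not say what a shared replicate number means, so the numbers were not taken as pairs. Deviations from the group means correlated at −0.156 to 0.198 between same-numbered libraries of different groups. Between differently numbered ones they correlated at −0.264 to 0.227. With 3 libraries a group, the low counts of most members limit what could be seen.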
